A study of Mus musculus with 6 samples.

Results

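The genes followed here are 10 members of the transforming growth factor beta (TGF-beta) pathway, measured by RNA-seq in cultured CD8+ effector T cells (Teff) from WT and Scd-1-/- mice. They comprise the ligand Tgfb1, the signalling receptors Tgfbr2 and Tgfbr1, the co-receptors Tgfbr3 and Eng, the signal transducers Smad2, Smad3 and Smad4, and the inhibitors Smad7 and Skil. They were taken by gene symbol from the deposited tables, and all 10 were present among the 34745 genes of each library. Levels are given as FPKM, a read count scaled to the length of the gene and to the depth of the library. A mean of at least 1 FPKM over the 6 libraries, reached by 9627 genes, was required for the main test, and 8 of the 10 members reached it. Tgfbr1 and Skil lay under that minimum, and their tests were read from a fit to the 17192 genes with at least a count.

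The WT group was C57BL/6J mice, and the Scd-1-/- group was the B6.129-Scd1tm1Ntam/J strain, in which the Scd1 desaturase is deleted in every tissue rather than in T cells alone. The WT mice were purchased and the knockout mice were donated, so that genotype and origin of the animals cannot be told apart. According to the methods, male mice of 6 to 8 weeks were used. Splenic CD8+ T cells of both groups were stimulated for 3 days with antibodies to CD3 (5 μg/mL) and CD28 (0.5 μg/mL) in the presence of 100 U/mL IL-2, were then given IL-2 alone for the next 3 days, and were collected on day 6. There were 3 libraries per genotype, numbered 1 to 3 in both. Nothing in the labels says that the 3 libraries of a group came from separate mice or cultures, so that the p-values measure only the spread between these libraries, which may be technical. The methods speak of independent experiments in general, without saying so of these libraries. The protocols list no added TGF-beta, but the medium held fetal bovine serum, whose TGF-beta content is not given.

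TGF-beta is secreted in a latent form and, once released, is bound by the type II receptor TGFBR2, which recruits and phosphorylates the type I receptor TGFBR1. The activated type I receptor phosphorylates SMAD2 and SMAD3, which enter the nucleus with SMAD4 and regulate transcription, while SMAD7 blocks the receptor and SnoN, the product of Skil, holds the SMAD complex in check. Smad7 and Skil are themselves SMAD targets and serve as negative feedback. In CD8+ T cells the pathway is known for restraining cytotoxic effector genes and for inducing the integrin CD103, the product of Itgae.

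The libraries held between 14034479 and 15866216 counts, and the floor of 3 counts that a count of 0 allows was between 0.189 and 0.214 CPM, counting error only. The targeted gene Scd1 had between 3074 and 4272 counts in the WT libraries and between 20 and 36 in the Scd-1-/- libraries. The first principal component, with 42.9% of the variance, set replicate 1 of both genotypes apart from the other 4 libraries, and the second, with 36.3%, separated the genotypes. Mitochondrial genes took 1.66% to 1.78% of the WT counts and 2.25% to 3.20% of the Scd-1-/- counts. T cell genes were high in every library, with Cd3e between 263 and 367 FPKM, and Cd4 did not exceed 0.345 FPKM. Cd8a had 43.2 to 47.6 FPKM in the WT group and 27.9 to 36.6 FPKM in the Scd-1-/- group, without overlap (log2 fold change -0.46, edgeR adjusted p = 0.297, and 0.0630 with the replicate number as a block).

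Per length, Tgfb1 was the most abundant member, with a mean of 90.1 FPKM over the 6 libraries, which exceeded the mean level of 93.7% of the genes tested. Tgfbr2 followed at 41.2 FPKM, and both stood clear of their neighbours in every library. Smad3 at 9.12 FPKM and Smad4 at 7.61 FPKM overlapped each other, and Smad4 lay above Smad2 at 4.74 FPKM in every library. From Smad2 downwards, Smad7 at 3.54 FPKM, Eng at 2.38 FPKM, Tgfbr3 at 1.91 FPKM, Tgfbr1 at 0.919 FPKM and Skil at 0.564 FPKM each overlapped the next in that order. These levels depend on the gene length used, since the length implied by the deposited FPKM of Skil was 20.8 kb against 9.69 kb of merged exons in GENCODE M21, while fold changes between libraries do not depend on it.

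**Figure D1:**
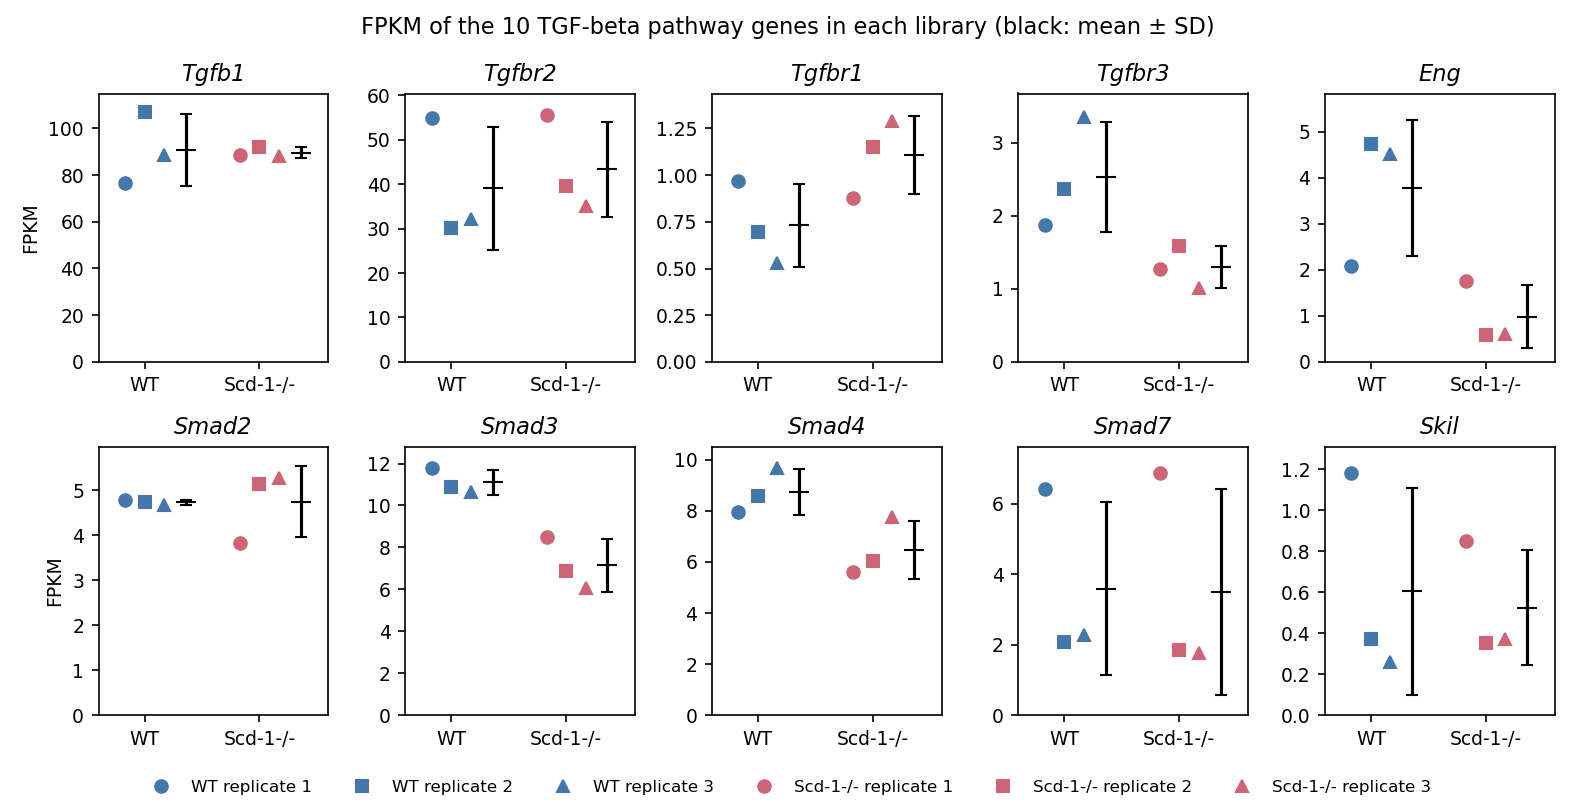
FPKM (y axis, linear, from 0, one scale per gene) of the 10 genes in the 3 WT and 3 Scd-1-/- libraries, with the replicate number given by the shape of the point and the mean ± SD of each group in black. The Scd-1-/- points of Tgfbr3, Eng, Smad3 and Smad4 all lie below the WT points, whereas the replicate 1 points of Smad7, Skil and Tgfbr2 lie apart from replicates 2 and 3 in both genotypes.

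The comparison of genotypes asks whether loss of Scd-1 was accompanied by other transcript levels of the pathway. By the quasi-likelihood test of edgeR, with p-values adjusted after Benjamini-Hochberg over all genes, 0 of the 8 tested members were called at an adjusted p under 0.05, against 0.114% of all genes tested, and 3 (Tgfbr3, Eng and Smad3) had an unadjusted p under 0.05, against 10.1% of all genes. At the thresholds of the study, a log2 change of 1 or more in size with an unadjusted p under 0.001, which 0.738% of all genes passed, 0 of the 8 members were called. DESeq2 called 1 member, Eng, against 2.77% of all genes, and limma called 0 on log2(FPKM + 1), against 0.177%, and 0 on log2(FPKM + 0.1), against 0.156%. Same-numbered libraries of the 2 genotypes deviated together, most clearly in replicate 1 (r = 0.595 across genes). Scd-1-/- replicate 2, however, followed WT replicate 3 (r = 0.380) more than WT replicate 2 (r = 0.306), so that the pairing of replicates 2 and 3 is not settled. The fit was repeated with the replicate number as a block. With the block 1 of the 8 members was called, Smad3, lower in Scd-1-/- Teff, against 4.7% of all genes, of which 2.06% were lower. The groups did not overlap for 16% of all genes tested and for 4 of the 8 members, Tgfbr3, Eng, Smad3 and Smad4, each lower in Scd-1-/- Teff, an order that 7.6% of all genes had. The median log2 fold change of the 8 members was -0.22 and that of all genes was -0.00051.

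**Figure D2:**
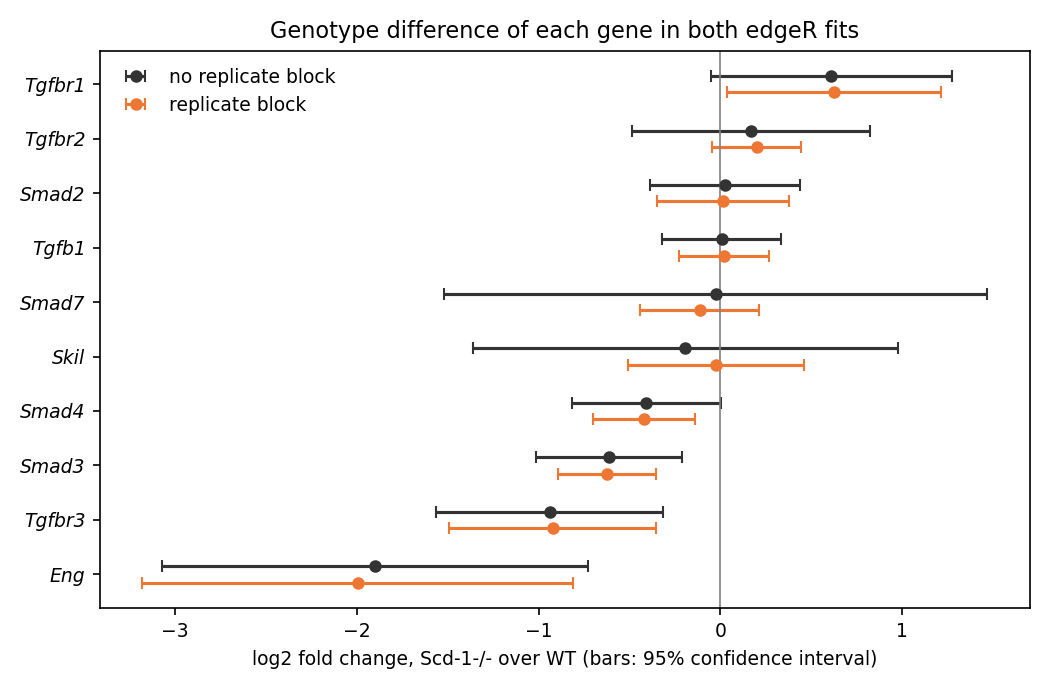
Log2 fold change of each of the 10 genes (x axis, Scd-1-/- over WT, 0 at the grey line) with its 95% confidence interval in edgeR fits without (black) and with (orange) the replicate block. Eng, Tgfbr3 and Smad3 have intervals below 0 in both fits, and the intervals of Smad7 and Skil narrow most when the replicate number is a term.

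Tgfb1, which encodes the TGF-beta1 precursor, lies at chr7:25687002-25705077 on the plus strand (GRCm38, GENCODE M21). Its FPKM was 76.6, 106.8 and 88.7 in WT replicates 1, 2 and 3 and 88.8, 92.1 and 87.9 in Scd-1-/- replicates 1, 2 and 3. The groups overlapped fully and the Scd-1-/- values lay within the WT range. The log2 fold change was 0.01 with a 95% confidence interval from -0.32 to 0.33 (edgeR adjusted p = 0.993).

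Tgfbr2, the ligand-binding type II receptor, lies at chr9:116084293-116175360 on the minus strand. Its FPKM was 55.0, 30.0 and 32.1 in WT replicates 1 to 3 and 55.5, 39.6 and 35.0 in Scd-1-/- replicates 1 to 3. Replicate 1 of both genotypes was above all other libraries, and the genotypes overlapped. The genotype difference was 0.17 on the log2 scale (95% interval -0.49 to 0.82, edgeR adjusted p = 0.903), whereas the replicate number F test, read across all genes in the fit with genotype, gave an adjusted p of 0.0141. The promoter is shown because this receptor moved with the replicate number. It comprises the 250 bases before the RefSeq start (GRCm38.p6), one of 5 members with an entry in the RefSeq table used, and the capitals mark the SMAD box CAGAC, which was searched on both strands and is found in the same window of 42.2% of 32851 promoters.
Tgfbr2 promoter, chr9:116175364-116175613, minus strand: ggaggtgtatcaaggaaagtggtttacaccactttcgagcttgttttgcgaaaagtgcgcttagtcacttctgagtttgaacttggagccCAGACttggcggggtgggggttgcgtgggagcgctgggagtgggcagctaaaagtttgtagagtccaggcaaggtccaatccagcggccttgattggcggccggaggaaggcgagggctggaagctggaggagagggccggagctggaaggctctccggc
It held 1 CAGAC and no match to the palindrome GTCTAGAC, which 0.167% of promoters hold. These matches are a description of letters, not of binding.

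Tgfbr1, the type I receptor kinase, lay just under the minimum of 1 FPKM, with 0.968, 0.695 and 0.531 FPKM in the WT libraries and 0.879, 1.15 and 1.29 FPKM in the Scd-1-/- libraries (134, 89 and 69 against 125, 148 and 187 counts). Within replicates 2 and 3 the Scd-1-/- libraries were the higher ones, while replicate 1 of the Scd-1-/- group lay inside the WT range. The fit to every gene with a count, which called 0.489% of them (4.36% with the replicate block), gave a log2 fold change of 0.61 ± 0.301 (SE) with an edgeR adjusted p of 0.634, or 0.265 with the block. In replicates 2 and 3 alone it was 1.04 with an edgeR adjusted p of 7.08e-04. That setting called 1213 of the 9627 genes above the FPKM minimum. The test of whether the difference in replicate 1 departed from that in replicates 2 and 3 gave an adjusted p of 0.218 (1.93% of all genes with a count were called by it).

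Tgfbr3 encodes betaglycan, a co-receptor that presents ligand to the type II receptor, and lies at chr5:107106570-107289629 on the minus strand. It had 1.87, 2.36 and 3.35 FPKM in the WT libraries and 1.27, 1.59 and 1.02 FPKM in the Scd-1-/- libraries. Every Scd-1-/- library was below every WT library. The group means were 2.53 ± 0.751 and 1.29 ± 0.286 FPKM (SD, n = 3 each) with a log2 fold change of -0.94 ± 0.269 (SE), and edgeR's adjusted p was 0.277 without and 0.0768 with the replicate block, so that the gene passed the threshold in neither.

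Eng encodes endoglin, a co-receptor of TGF-beta superfamily ligands that acts with the type I receptor ALK1 and is best known from endothelial cells. It had 2.07, 4.75 and 4.51 FPKM in WT replicates 1 to 3 (230, 487 and 469 counts) and 1.77, 0.592 and 0.604 FPKM in Scd-1-/- replicates 1 to 3 (201, 61 and 70 counts). All Scd-1-/- libraries were below all WT libraries, but replicate 1 of the genotypes lay close together and replicates 2 and 3 far apart. Between same-numbered libraries the log2 ratio of Scd-1-/- to WT CPM was -0.23 in replicate 1, -3.00 in replicate 2 and -2.84 in replicate 3. The test of whether replicate 1 departed from replicates 2 and 3 in its genotype difference, which was added after these values were seen, gave 2.68 ± 0.303 (SE) on the log2 scale with an edgeR adjusted p of 0.00938, and 0.384% of all genes tested were called by it. Replicate 1 holds a single library per genotype, so that the spread in that test comes from replicates 2 and 3.

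Over the 3 replicates the log2 fold change of Eng was -1.90 ± 0.504 (SE), with an edgeR adjusted p of 0.248 without and 0.0688 with the replicate block. It was -2.91 with an adjusted p of 4.3e-05 in replicates 2 and 3 alone, where 1213 of the 9627 genes tested were called. Without Scd-1-/- replicate 1 it was -2.63 with an adjusted p of 0.0223. DESeq2 gave an adjusted p of 0.00686 for all 6 libraries. The gene lies at chr2:32646595-32682669 on the plus strand, and 61 of its exonic bases overlap those of Fpgs on the opposite strand. Its promoter is shown because its genotype difference was the largest of the members, with the SMAD box CAGAC or its reverse complement GTCTG in capitals.
Eng promoter, chr2:32646345-32646594, plus strand: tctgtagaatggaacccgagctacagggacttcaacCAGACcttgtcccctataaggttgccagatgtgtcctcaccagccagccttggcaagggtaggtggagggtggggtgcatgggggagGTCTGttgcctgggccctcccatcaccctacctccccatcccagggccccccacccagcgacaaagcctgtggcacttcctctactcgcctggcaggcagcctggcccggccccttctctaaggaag
It held 2 matches on the 2 strands together.

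Acvrl1, which encodes ALK1, the receptor partner of endoglin, had 3.01, 3.16 and 2.78 FPKM in the WT libraries and 3.42, 0.873 and 0.998 FPKM in the Scd-1-/- libraries. Scd-1-/- replicate 1 was the highest of the 6 and Scd-1-/- replicates 2 and 3 the lowest, the order that Eng also had within the Scd-1-/- group. The log2 fold change was -0.73 ± 0.501 (SE) with an edgeR adjusted p of 0.695 (0.165 with the replicate block), and the departure of replicate 1 from replicates 2 and 3 was 1.81 ± 0.325 with an adjusted p of 0.0713. Without Scd-1-/- replicate 1 the log2 fold change of Acvrl1 was -1.65 (adjusted p = 0.0158), in replicates 2 and 3 alone it was -1.63 (0.00137), and in the blocked fit without replicate 1 -1.62 (0.00487). It was -0.41 (0.948) without Scd-1-/- replicate 2, -0.45 (0.997) without Scd-1-/- replicate 3, and -0.58 (0.568) in the blocked fit without replicate 2.

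Since Eng is an endothelial marker, the levels of other markers were set beside it, although the splenic cells had passed a CD8 T cell isolation kit before culture. Of 7 endothelial markers, Cdh5 and Emcn had no count in any library, and Kdr, Tek and Vwf did not exceed 0.0093 FPKM. Pecam1, which T cells also express, had between 7.20 and 7.38 FPKM in the WT group and between 4.06 and 5.06 FPKM in the Scd-1-/- group (edgeR adjusted p = 0.157, and 0.0220 with the replicate block). With Eng included, the summed level of the 7 markers was 9.33 to 12.1 FPKM in the WT group and 4.67 to 6.83 FPKM in the Scd-1-/- group. The summed level of 10 myeloid markers was 9.50 to 17.9 FPKM in the WT group and 13.9 to 30.3 FPKM in the Scd-1-/- group, with Adgre1, Mpo and S100a9 without a count and Csf1r, Lyz2 and S100a8 at no more than 0.145 FPKM in any library. In the replicate block fit Cd14 (log2 fold change 2.41, edgeR adjusted p = 0.0287), Fcgr3 (1.41, adjusted p = 0.0264) and Itgam (2.43, adjusted p = 0.0464) of that list were higher in the Scd-1-/- group, and none of them was called without the block. Of 7 B cell markers 4 had no count in any library, and only Cd79b reached the FPKM minimum. Cd79b had 10.7, 9.41 and 10.3 FPKM in the WT libraries and 7.90, 3.13 and 3.68 FPKM in the Scd-1-/- libraries. Its edgeR adjusted p was 0.387, and 0.0434 with the replicate block. The part of other cells in the level of Eng was not tested, and in bulk RNA fewer cells of a type and less RNA per cell cannot be told apart.

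Smad2 and Smad3 encode the receptor-regulated SMADs of the TGF-beta branch, and their patterns differed in these libraries. Smad2 had 4.79, 4.74 and 4.67 FPKM in the WT libraries and 3.83, 5.13 and 5.27 FPKM in the Scd-1-/- libraries. The WT values lay inside the Scd-1-/- range, and the log2 fold change was 0.03 with a 95% interval from -0.39 to 0.44 (edgeR adjusted p = 0.978).

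Smad3 had 11.8, 10.9 and 10.6 FPKM in WT replicates 1 to 3 (1024, 875 and 867 counts) and 8.52, 6.88 and 6.05 FPKM in Scd-1-/- replicates 1 to 3 (760, 556 and 550 counts). Every Scd-1-/- library was below every WT library, and the difference had the same direction in all 3 replicate numbers, with log2 CPM ratios of -0.47, -0.65 and -0.75. The group means were 11.1 ± 0.603 and 7.15 ± 1.26 FPKM (SD, n = 3 each), which gave a log2 fold change of -0.61 ± 0.173 (SE) with an edgeR adjusted p of 0.272. With the replicate block it was -0.62 ± 0.117 with an adjusted p of 0.0296, which makes Smad3 the 1 member that passed the threshold in that fit. That call was lost in blocked fits without replicate 2 or replicate 3 of both genotypes (adjusted p = 0.147 and 0.173) and stood without replicate 1 (0.0139). The estimate itself stayed between -0.76 and -0.51 over 18 other settings.

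Smad3 lies at chr9:63646767-63757994 on the minus strand. Its promoter is shown as that of the member called in the blocked fit.
Smad3 promoter, chr9:63757995-63758244, minus strand: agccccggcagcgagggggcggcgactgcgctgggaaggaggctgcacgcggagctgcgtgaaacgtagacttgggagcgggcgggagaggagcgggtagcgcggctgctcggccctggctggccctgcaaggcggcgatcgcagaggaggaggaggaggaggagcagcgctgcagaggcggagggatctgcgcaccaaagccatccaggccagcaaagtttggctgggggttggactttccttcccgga
It held no CAGAC on either strand and no GTCTAGAC. Over the 6 libraries, the genes with the log2 CPM pattern most like that of Smad3 among the 9627 tested were Cnot8 (Pearson r = 0.997), Sh3bp5 (r = 0.997) and Ncf1 (r = 0.995). These correlations rest on 6 libraries that carry the genotype difference, and they are given as a description. Sh3bp5 fell from between 6.25 and 8.14 FPKM in the WT libraries to between 1.67 and 4.20 FPKM in the Scd-1-/- libraries (edgeR adjusted p with the block = 0.0112), and Ncf1, which encodes a subunit of the phagocyte NADPH oxidase, from between 11.1 and 14.8 to between 4.58 and 8.37 FPKM (0.00694), while Cnot8 did not pass the threshold (0.260).

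Smad4, the common partner of the receptor-regulated SMADs, had 7.95, 8.57 and 9.70 FPKM in the WT libraries and 5.60, 6.04 and 7.77 FPKM in the Scd-1-/- libraries. The groups did not overlap, although the highest Scd-1-/- value and the lowest WT value were close. The log2 fold change was -0.41 ± 0.176 (SE), and the edgeR adjusted p was 0.497 without and 0.0959 with the replicate block.

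Smad7, the inhibitory SMAD, had 6.41, 2.08 and 2.27 FPKM in WT replicates 1 to 3 and 6.87, 1.84 and 1.77 FPKM in Scd-1-/- replicates 1 to 3. Replicate 1 was high in both genotypes and the 4 other libraries were low and close together. Its CPM in replicate 1 was 3.04 times the mean of replicates 2 and 3 in the WT group and 3.82 times that mean in the Scd-1-/- group. The replicate number F test gave an edgeR adjusted p of 0.00316, and the genotype difference was -0.03 on the log2 scale (95% interval -1.52 to 1.47, adjusted p = 0.994). With the replicate block the interval of the genotype difference narrowed to -0.44 to 0.21.

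Skil, which encodes the SMAD corepressor SnoN, had 1.18, 0.370 and 0.260 FPKM in the WT libraries (373, 108 and 77 counts) and 0.848, 0.354 and 0.369 FPKM in the Scd-1-/- libraries (275, 104 and 122 counts). Replicate 1 was again above all other libraries in both genotypes, by 3.86 times the mean of replicates 2 and 3 in the WT group and 2.36 times in the Scd-1-/- group. Among all genes with a count, the replicate number F test gave an edgeR adjusted p of 0.00436, and the genotype difference was -0.19 ± 0.530 (SE, adjusted p = 0.930).

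By replicate number, 2 of the 8 tested members (Tgfbr2 and Smad7) were called, against 15.9% of all genes tested, and Skil was called in the fit to all genes with a count, where 10.1% were called. In all 3 of them both replicate 1 libraries were above the other 4, an order that 23.3% of the genes tested had. When each library was left out in turn, Smad7 and Skil remained called in 6 of 6 fits and Tgfbr2 in 5 of 6, with an adjusted p of 0.0547 without WT replicate 1. Eng, which was not called with all libraries (edgeR F test adjusted p = 0.904), was called in 2 of those 6 fits. What a replicate number stands for is not given in the labels. Cd68, a myeloid marker, and the integrin Itgb3, listed as a platelet marker, also moved with replicate 1. Cd68 had 16.7 and 27.2 FPKM in replicate 1 and between 7.79 and 9.57 FPKM in the other libraries, and Itgb3 had 18.5 and 21.6 FPKM in replicate 1 and between 3.83 and 8.84 FPKM in the others. The low myeloid marker Itgam had 0.146 and 0.740 FPKM in replicate 1 and between 0 and 0.140 FPKM in the others (edgeR adjusted p of the F test = 0.0358), and Csf1r had 0 FPKM in both replicate 1 libraries. Other myeloid and platelet markers did not follow replicate 1. Fcgr3 was lowest in replicate 1 of each genotype, with 0.568 and 1.26 FPKM (F test adjusted p = 0.0534), and Cd14 had an adjusted p of 0.963. The platelet markers Pf4 and Ppbp had no count in either replicate 1 library, and Itga2b had an adjusted p of 0.794. Among T cell and natural killer markers, the F test called Cd247 (adjusted p = 0.0383), Klrb1c (0.0425), Zbtb7b (0.0446) and Itga2 (0.0461). Replicate 1 was highest in each genotype for Cd247 and lowest for Klrb1c and Zbtb7b. The part of other cell types in the replicate 1 levels was not tested.

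**Figure D3:**
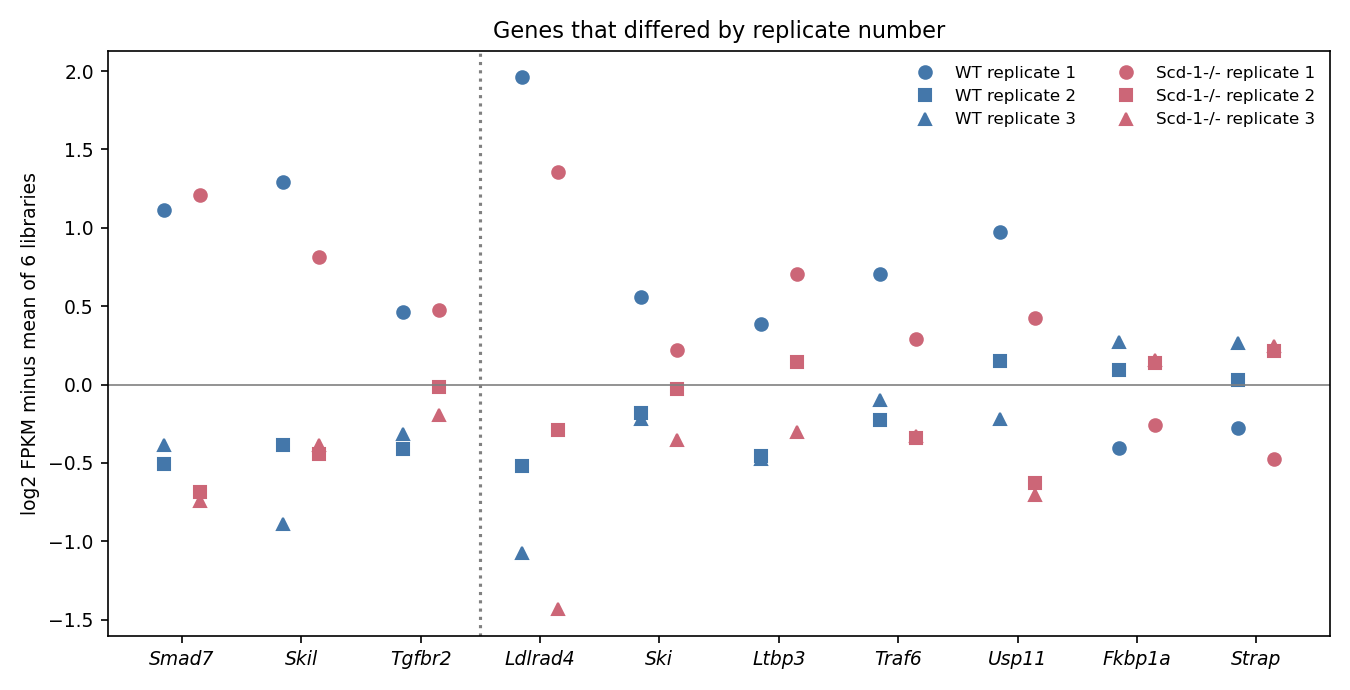
Log2 FPKM of each gene minus its mean over the 6 libraries (y axis) for the 3 members (left of the dotted line) and the 7 other pathway genes of at least 1 FPKM (right) that differed by replicate number in edgeR's F test, by genotype (colour) and replicate number (shape). Replicate 1 of both genotypes lies above the other 4 libraries for all but Fkbp1a and Strap, where it lies below them.

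Around the members, 59 other genes of the pathway had a count and 38 of them were tested. Without the block 0 of the 38 were called in edgeR, against 0.114% of all genes tested. An unadjusted p under 0.05 was reached by 3, against 10.1% of all genes. DESeq2 called 0, against 2.77%, and limma called 0 with either pseudocount, against 0.177% and 0.156%. With the replicate block 1 of the 38 was called, against 4.7% of all genes tested. It was Usp11, which encodes a deubiquitinase described to act on the type I receptor. Usp11 had 10.7, 6.02 and 4.67 FPKM in the WT libraries and 7.27, 3.50 and 3.33 FPKM in the Scd-1-/- libraries, with a log2 fold change of -0.58 ± 0.125 (SE) in the blocked fit (edgeR adjusted p = 0.0436). Within each replicate number the Scd-1-/- library was the lower one, although the groups overlapped. The blocked call was lost without replicate 2 (adjusted p = 0.216) or replicate 3 (0.0903), and the unblocked estimate was -0.15 without WT replicate 1 and -1.05 without Scd-1-/- replicate 1.

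The median log2 fold change of the 38 genes was 0.02. Of the 5 tested ligand and latency genes, the largest difference was that of Lrrc32, which encodes the latent TGF-beta docking protein GARP, with 1.80, 2.63 and 1.89 FPKM in the WT libraries and 3.63, 3.73 and 2.64 FPKM in the Scd-1-/- libraries. Its log2 fold change was 0.68 ± 0.223 (SE), with an edgeR adjusted p of 0.361 without and 0.0524 with the block. Among 9 other SMADs, partners and corepressors the largest was that of the corepressor Tgif1, at -0.38 (adjusted p = 0.738; -0.19 without WT replicate 1 and -0.71 without Scd-1-/- replicate 1), and among 5 genes of the TAK1 branch that of the ubiquitin ligase Traf6, at -0.26 (adjusted p = 0.849). Of 16 regulators of receptors and SMADs, Usp11 had the largest, and of 3 activin and BMP receptors Acvrl1.

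By replicate number 7 of the 38 genes were called, or 18.4% against 15.9% of all genes tested, 5 with replicate 1 above and 2 with replicate 1 below all other libraries, the latter an order that 21.4% of all genes tested had. The first were Ldlrad4, Ski, Ltbp3, Traf6 and Usp11, and the others Fkbp1a and Strap, all named after their values were seen. Under the FPKM minimum Acvr1, an activin and BMP type I receptor, was also called (adjusted p = 0.0457), with 0.170 and 0.230 FPKM in replicate 1 and between 0.343 and 0.803 FPKM in the other libraries. Ldlrad4, a SMAD inhibitor that TGF-beta induces, had 7.17, 1.29 and 0.874 FPKM in the WT libraries and 4.71, 1.51 and 0.683 FPKM in the Scd-1-/- libraries. Ski, a corepressor related to SnoN, had 14.8, 8.89 and 8.63 FPKM in the WT libraries and 11.7, 9.86 and 7.87 FPKM in the Scd-1-/- libraries. Both thus had replicate 1 highest in each genotype, as Smad7 and Skil did. Not all regulators followed that order. Pmepa1, listed both as a regulator and as induced by TGF-beta, had 0.871 and 0.998 FPKM in replicate 1, below all other libraries. It was not called by replicate number (edgeR F test adjusted p = 0.14). Bambi, a regulator under the FPKM minimum, was not called either (adjusted p = 0.56).

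Genes known to respond to TGF-beta, in T cells or in other cells, were then read from the same fits. Without the block 2 of the 15 tested were called, Eomes and Prf1, both higher in Scd-1-/- Teff (0.0727% of all genes tested), and Itgae, under the FPKM minimum, was lower among all genes with a count (0.174%). With the block 8 of the 15 were called, all higher in Scd-1-/- Teff, against 2.64% of all genes tested, and Itgae was lower among all genes with a count (2.12%). The effector genes among them were known from earlier results of these data to differ and are no independent evidence of a direction.

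In the induced list the calls went both ways. Itgae, which encodes CD103, had 1.08, 1.88 and 1.09 FPKM in the WT libraries (77, 124 and 73 counts) and 0.110, 0.257 and 0.336 FPKM in the Scd-1-/- libraries (8, 17 and 25 counts). All Scd-1-/- libraries were far below all WT libraries, with a log2 fold change of -2.51 ± 0.462 (SE) and an edgeR adjusted p of 0.0485, or 0.0028 with the block. The unblocked call was lost with median-ratio scaling (adjusted p = 0.0507) and in limma (0.170 and 0.163 with pseudocounts of 1 and 0.1). A pair of cell cycle inhibitors of the same list, which TGF-beta induces in epithelial cells, went the other way. Cdkn1a rose from 35.0, 69.7 and 57.3 FPKM to 56.7, 102 and 101 FPKM (blocked log2 fold change 0.71 ± 0.100, edgeR adjusted p = 0.0112), and Cdkn2b from 2.37, 0.921 and 1.56 FPKM to 5.76, 10.2 and 12.7 FPKM (2.55 ± 0.408, adjusted p = 0.0185).

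In the repressed list 6 of 9 genes were higher with the block and 3 did not pass the threshold. Prf1, which encodes perforin, had 44.9, 23.8 and 30.6 FPKM in the WT libraries and 143, 173 and 172 FPKM in the Scd-1-/- libraries, with a log2 fold change of 2.31 ± 0.248 (SE) and an edgeR adjusted p of 0.0259. Eomes, a transcription factor of cytotoxic T cells, had 3.62, 4.18 and 4.07 FPKM in the WT libraries and 9.34, 14.5 and 13.7 FPKM in the Scd-1-/- libraries (log2 fold change 1.69 ± 0.196, adjusted p = 0.0359). For both, every Scd-1-/- library was above every WT library. The other 4 were the granzymes Gzma (blocked log2 fold change 1.83) and Gzmb (0.87), the inhibitory receptor Klrg1 (3.92) and the cytokine Ifng (1.57), with adjusted p between 0.0108 and 0.0232 in the blocked fit. Fasl was at 0.94 (adjusted p = 0.0516), while Tbx21 was at 0.05 and Myc at 0.02. By replicate number 5 of the 15 responsive genes were called (33.3%, against 15.9% of all genes tested), namely Cdkn1a, Ldlrad4, Tbx21, Ifng and Myc. Ifng had 17.2, 3.13 and 2.68 FPKM in the WT libraries and 30.9, 11.6 and 11.7 FPKM in the Scd-1-/- libraries. Replicate 1 was the highest library within each genotype, and the groups overlapped. Without the block its log2 fold change was 1.24 (edgeR adjusted p = 0.650), with 2.67 without WT replicate 1 and 0.60 without Scd-1-/- replicate 1.

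Markers of natural killer cells stood beside these genes, since their summed level, which includes Eomes, was 4.89 to 5.52 FPKM in the WT group and 11.7 to 24.4 FPKM in the Scd-1-/- group. Klrb1c, which encodes NK1.1, had between 0.501 and 0.938 FPKM in the WT group and between 1.66 and 9.39 FPKM in the Scd-1-/- group (block adjusted p = 0.00591). Of the other markers of that list, Ncr1 had between 0 and 0.221 FPKM in the WT group and between 0 and 0.0793 FPKM in the Scd-1-/- group, Itga2 had between 0.150 and 0.767 against between 0.105 and 0.522 FPKM, and Klra8 and Klra4 were at 0 in the WT group and at no more than 0.103 FPKM in the Scd-1-/- group. The isolation kit is meant to remove such cells, and their part in the effector genes was not tested. The calls without the block depended on single libraries, as 0 of the responsive genes were called when a library with the number 2 or 3 was left out from either genotype. Of the genes named here as called with the block, Itgae, Cdkn2b, Gzmb and Ifng were lost without replicate 2 of both genotypes, and Gzmb without replicate 3.

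**Figure D4:**
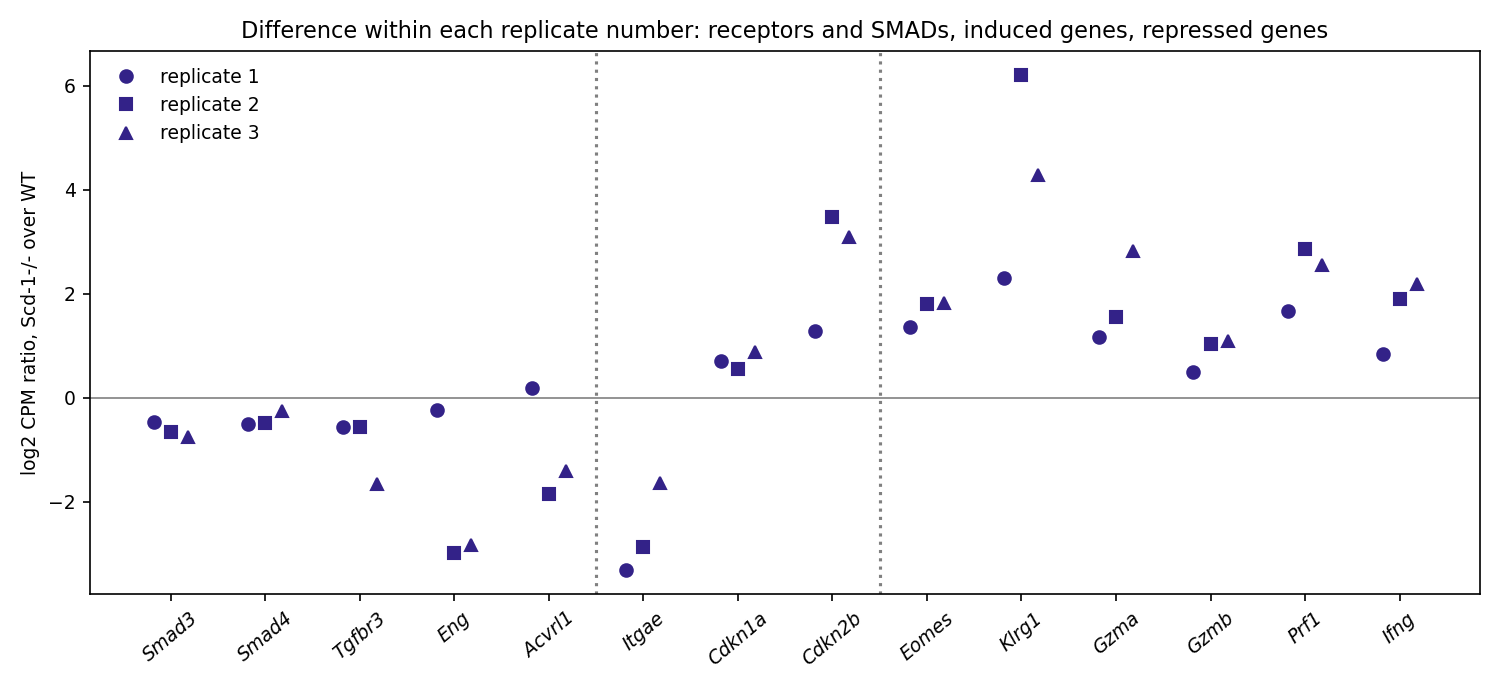
Log2 ratio of Scd-1-/- to WT CPM within each replicate number (y axis, shape for replicate number, 0 at the grey line) for receptors and SMADs, genes known to be induced by TGF-beta and genes known to be repressed by it, separated by dotted lines. Replicates 2 and 3 of Eng lie near -3 while replicate 1 lies at -0.23, and the 3 ratios of Smad3 lie between -0.75 and -0.47.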

How the data were processed

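RNA of 6 mouse Teff libraries was measured, 3 WT and 3 Scd-1-/-, grouped by the labelled genotype. The labels name Trizol and poly(A) RNA, the methods a column kit and a stranded total RNA kit, and which was used is not settled. According to the submitters' processing notes and the methods, the authors mapped reads to GRCm38 with HISAT2 and quantified them with StringTie 1.3.0. The authors deposited whole-number counts and FPKM per gene, without TMM factors in the FPKM. How reads shared by several genes were assigned is not given in the sources used here.

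Counts were tested with edgeR 4.0.16 (quasi-likelihood, TMM scaling, mean FPKM of at least 1, 9627 genes, Benjamini-Hochberg adjusted p under 0.05), after the tests had been tried on simulated data. Genes under the minimum were read from a fit to 17192 genes. Alternatives used DESeq2 1.42.0, limma 3.58.1 on log2(FPKM + 1) or log2(FPKM + 0.1), median-ratio scaling, other minimums, the replicate block and left-out libraries. The interaction of genotype with replicate 1, the block fits without a replicate pair, the replicate number test without each library and the levels with GENCODE M21 lengths were chosen after seeing the data. The members and gene lists were chosen with earlier results of these data known. Genes named are all members, every listed gene called in either fit, the largest difference of each pathway list and the 3 genes most like a called member. A listed gene called in the blocked fit is counted in the totals but not reported by name here.

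The replicate numbers were taken to pair the libraries because deviations from the group means correlated between same-numbered libraries (r = 0.595, 0.306 and 0.470 across genes). Crossing replicates 2 and 3 gave r of 0.380 and 0.180, and the labels do not say what a number marks. Library depth was 14034479 to 15866216 counts. An exact permutation test with 3 values a group cannot go below p = 0.1. Promoter sequences and their coordinates are from RefSeq (GRCm38.p6), and gene positions from GENCODE M21.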

Additional observations from a re-analysis of the deposited data

How the results depend on the processing

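The estimates of Tgfbr1, Tgfbr3, Eng, Smad3 and Smad4 kept their direction under every setting run, and those near 0 changed sign. Without the FPKM minimum Tgfb1 was at -0.0056, in replicates 2 and 3 alone at -0.085, in limma at -0.0044 and -0.0043, and with single libraries left out between -0.088 and 0.14. Smad2 was at -0.0067 and -0.010 in limma and between -0.061 and 0.16 with single libraries left out. Left-out libraries gave a range from -0.054 to 0.52 for Tgfbr2, -0.98 to 0.72 for Smad7, -0.71 to 0.75 for Skil and -0.51 to 0.11 for Traf6, and replicates 2 and 3 alone gave 0.24 for Skil.

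With the replicate block 452 genes were called in place of 11 (184 in place of 71 at the thresholds of the study), 1 member in place of 0, 1 other pathway gene in place of 0 and 10 responsive genes in place of 3. The blocked fits without replicates 1, 2 and 3 gave 1468, 119 and 241 genes (348, 117 and 164), 0 to 4 members, 0 to 3 pathway genes and 5 to 11 responsive genes, and moved Tgfb1 to -0.077 without replicate 1, Smad2 to -0.043 and -0.100 without replicates 2 and 3, and Skil to 0.26 and 0.0070 without replicates 1 and 2. A term for replicate 1 gave 539 genes (209), 2 members, 1 pathway gene and 11 responsive genes. Replicates 2 and 3 alone gave 1213 of the 9627 genes tested (369), 4 members (Tgfbr1, Tgfbr3, Eng and Smad3), 2 pathway genes and 11 responsive genes. Of these, Tgfbr1 and the responsive genes under the minimum were read from the fit to all genes with a count.

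DESeq2 called 266 genes (161), 1 member and 8 responsive genes, and limma with a pseudocount of 1 called 17 genes. No FPKM minimum gave 84 genes (148) and 7 responsive genes, and a minimum of 5 gave 18 genes (43) and 1 member that differed by replicate number in place of 3, since fewer members were tested. Single libraries left out gave 2 to 182 genes (25 to 163), 0 to 1 members, 0 to 1 pathway genes, 0 to 8 responsive genes and 3 to 4 members by replicate number. Each of the 6 libraries moved the count of 11 by over 1.5 times, and the cause was not tested.

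With GENCODE M21 exon lengths the mean levels were 102 (Tgfb1), 24.1 (Tgfbr2), 11.7 (Smad4), 6.05 (Smad7), 4.30 (Eng), 2.83 (Smad2), 1.28 (Tgfbr1) and 1.21 FPKM (Skil), so that Smad4 stood above Smad3 and no member was under the minimum. The rarest members had 61 (Eng), 69 (Tgfbr1) and 77 counts (Skil) in their lowest library, and the smallest difference that this depth could show was not measured.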
